A study of Mus musculus with 4 samples.

Results

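The 10 genes described here encode killer cell lectin-like receptors: the NKG2 and CD94 chains Klrk1, Klrc1, Klrc2, Klrc3, Klrd1 and Klre1, the KLRG1 receptor gene Klrg1, and the NKR-P1 genes Klrb1a, Klrb1c and Klrb1f. They were taken as a named list of receptor families from 15301 genes. These were listed in any of 4 single-cell libraries of mouse colon intraepithelial lymphocytes, the T cells that lie within the gut lining. The list was made with earlier results of these data known, and it is not whole: the NKR-P1 genes Klrb1 and Klrb1b are in another list. All 10 were listed in TCRβ Tcf7WT and in TCRγδ Tcf7WT. TCRβ Tcf7KO listed 9, without Klrg1, and TCRγδ Tcf7KO listed 9, without Klrc3.

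These receptors are transmembrane lectin-like proteins of natural killer cells that cytotoxic T cells of the gut epithelium can also carry. CD94, the product of Klrd1, pairs with NKG2A (Klrc1) into an inhibitory receptor, or with NKG2C or NKG2E (Klrc2, Klrc3) into activating receptors that signal through DAP12 (Tyrobp), and all of these bind the nonclassical class I molecule Qa-1 (H2-T23). NKG2D (Klrk1) is an activating homodimer that recognises stress-induced ligands and signals through DAP10 (Hcst). KLRE1 pairs with KLRI1 or KLRI2, KLRG1 is an inhibitory receptor for E-cadherin (Cdh1), and some of the NKR-P1 receptors bind proteins of the Clec2 family.

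The cells were live CD3+ CD8α+ lymphocytes of the colon, sorted either for TCRβ or for TCRγ, which the sample titles name as γδ, so the second sort is called TCRγδ here. Each sort was given as Tcf7WT and as Tcf7KO, with 1 library for each of the 4 groups. The strain label of all 4 libraries, the Tcf7WT ones included, is E8IcreTcf7fl/fl, a floxed Tcf7 gene combined with a Cre driven by a Cd8a enhancer that is active in CD8α-expressing T cells; what distinguishes the Tcf7WT animals is not given beyond the genotype label, and age, sex and the number of animals are not given in the sources used here. The product of Tcf7 is TCF-1, which binds DNA and is needed for T cell development. With 1 library a group there is no replicate check on any difference below: no test was made, and every interval is a 95% interval that covers counting error only.

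The 4 libraries held 1511 to 7603 cells and 6195292 to 20289960 UMIs (unique molecular identifiers, each standing for 1 captured transcript), with median depths of 2431 UMIs a cell in TCRβ Tcf7WT, 2860 in TCRβ Tcf7KO, 3188 in TCRγδ Tcf7WT and 4366 in TCRγδ Tcf7KO. Levels are given as CPM, the UMIs of a gene for every 1000000 UMIs of the library. The 3′ kit counts transcript ends, so levels of different genes need no division by length. Tcf7 itself was at 148, 107, 45.7 and 14.6 CPM in that order. Where its captured 3′ ends lie against the floxed part is not given, so these values are no check of the deletion. Trdc, the TCRδ constant gene, was at 15.4 and 14.7 CPM in the TCRβ libraries and at 1946 and 1905 CPM in the TCRγδ libraries, and Trac, its TCRα counterpart, still stood at 482 and 395 CPM in the latter. Natural killer cells carry many of the same receptors. Of their 5 markers, TCRβ Tcf7WT listed 4, summing to 8.33 CPM, TCRβ Tcf7KO all 5, at 8.49 CPM, and each TCRγδ library only 2, at 6.94 and 3.62 CPM. Ncr1, the defining one, was listed in TCRβ Tcf7KO alone, at 0.218 CPM. Gzma, the granzyme A gene that splits the cells further on, was at 1656, 4475, 12475 and 18928 CPM. Epithelial-like cells numbered 8, 1, 14 and 10 and held 0.410%, 0.115%, 1.29% and 3.83% of the UMIs. Between libraries, 26 cell barcodes were shared.

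All 10 genes lie on chromosome 6 (GENCODE M21 on GRCm38), and 9 of them, all but Klrg1, fall within 1070 kb from 128609227 to 129678973. Klrk1 spans 129610323 to 129623864 on the minus strand and Klrd1 129591782 to 129598775 on the plus strand. Klrb1a spans 128609227 to 128623533 and Klrb1c 128778485 to 128789215, both on the minus strand. Near-identical copies limit what the counts of some members can say. Of the 60-base windows in the last 500 bases of the annotated transcripts, 37.5% for Klrc1, 13.0% for Klrc2 and 17.9% for Klrc3 occur in another Klr gene, against 6.59% for Klrb1a, 4.93% for Klrb1c and 0% for the other 5. Reads of the Klrc genes could therefore be split or dropped between copies, and their values are uncertain. The 300 bases around the starts of Klrc2 and Klrc3 are alike at 289 positions.

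RefSeq start regions (GRCm38.p6, 300 bases around the start, mostly upstream) were at hand for 8 members; Klrd1 and Klrg1 had no entry. Of these, 3 are printed 5′ to 3′: Klrk1, lower in both Tcf7KO libraries than in Tcf7WT, Klrb1c, higher in both, and Klrb1a, which has a match to the motif of TCF-1. Capitals mark matches of 2 motifs: TCF/LEF, spelled CTTTGAA, or with its last bases changed CTTTGAT, or further CTTTGTA, or finally CTTTGTT; and RUNX, spelled TGTGGT, or with another central base TGCGGT, both searched on both strands.

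Klrk1 (chr6:129623815-129624114, minus strand): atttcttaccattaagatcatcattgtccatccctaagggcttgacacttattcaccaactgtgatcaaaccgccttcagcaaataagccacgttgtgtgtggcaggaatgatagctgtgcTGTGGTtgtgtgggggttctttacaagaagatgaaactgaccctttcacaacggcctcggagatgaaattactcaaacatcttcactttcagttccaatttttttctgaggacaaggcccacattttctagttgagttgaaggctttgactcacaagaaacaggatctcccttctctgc
Klrb1c (chr6:128788592-128788891, minus strand): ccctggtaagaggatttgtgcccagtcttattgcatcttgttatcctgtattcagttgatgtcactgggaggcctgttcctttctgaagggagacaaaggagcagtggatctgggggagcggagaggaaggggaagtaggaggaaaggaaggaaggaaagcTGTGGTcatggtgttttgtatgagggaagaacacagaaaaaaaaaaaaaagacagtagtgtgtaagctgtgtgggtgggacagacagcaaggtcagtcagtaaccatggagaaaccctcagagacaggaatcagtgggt
Klrb1a (chr6:128622885-128623184, minus strand): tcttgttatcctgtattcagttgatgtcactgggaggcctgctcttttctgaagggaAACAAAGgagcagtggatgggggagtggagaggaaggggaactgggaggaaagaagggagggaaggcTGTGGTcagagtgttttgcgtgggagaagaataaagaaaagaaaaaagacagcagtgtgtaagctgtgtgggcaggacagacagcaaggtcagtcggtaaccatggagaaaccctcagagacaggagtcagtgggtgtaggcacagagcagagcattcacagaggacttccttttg

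The start regions of Klrk1 and Klrb1c hold 1 RUNX match each, 129 and 89 bases upstream of the RefSeq start, and none of the 4 TCF/LEF spellings. Klrb1a holds a RUNX match 126 bases upstream and a TCF/LEF match on the opposite strand 193 bases upstream. Klrc1 and Klrb1f also hold 1 TCF/LEF match each, 162 and 146 bases upstream. The regions of Klrb1a and Klrb1c lie wholly inside the GENCODE spans given above, so the annotations place these starts differently. In those genes the matches lie upstream of the RefSeq start but within the GENCODE gene. Of all 32851 start regions in the table, 16.9% hold a TCF/LEF match and 22.4% a RUNX match. A match is a stretch of letters and says nothing of binding.

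Klrd1 was by far the most abundant member, and its level differed little in size between libraries, although every neighbouring pair in the order differed beyond counting error. It was at 1571 CPM in TCRβ Tcf7WT, 1443 in TCRβ Tcf7KO, 1512 in TCRγδ Tcf7WT and 1232 in TCRγδ Tcf7KO. After each cell was thinned to 1624 UMIs, 82.0%, 81.4%, 83.9% and 81.9% of cells had at least 1 Klrd1 UMI (88.3%, 89.4%, 90.0% and 95% unthinned). None of the 33 epithelial-like cells had one, at a median depth of 9056 UMIs. Most cells of both sorts thus had the CD94 transcript.

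The NKG2 partners of CD94 were scarce. The inhibitory chain Klrc1 was at 0.887, 1.31, 1.29 and 1.25 CPM in TCRβ (Tcf7WT, then Tcf7KO) and TCRγδ (Tcf7WT, then Tcf7KO), from 8 to 24 UMIs a library. The activating chain Klrc2 was at 9.56 and 8.44 CPM in the TCRβ libraries and at 3.87 and 2.09 CPM in the TCRγδ ones. Klrc3, its close copy, was at 4.58, 3.92 and 1.13 CPM in the 3 libraries that list it. Klrc2 stood lower in both TCRγδ libraries than in the TCRβ ones, and Klrc3 in the single TCRγδ library that lists it, on 7 UMIs. Between whole libraries of a sort, the intervals of the Klrc1, Klrc2 and Klrc3 differences between genotypes held equality where both libraries list the gene.

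Klrk1, which encodes NKG2D, ran in a clear order across libraries. It was at 73.0 CPM (69.3 to 76.8) in TCRβ Tcf7WT, 54.4 (51.1 to 57.9) in TCRβ Tcf7KO, 37.0 (32.3 to 42.1) in TCRγδ Tcf7WT and 6.96 (5.17 to 9.17) in TCRγδ Tcf7KO. No interval of a neighbouring pair in that order held equality. The transcript was concentrated in a few cells: 7.13%, 5.51%, 4.03% and 1.08% of thinned cells had a UMI (9.44%, 7.35%, 5.99% and 1.52% unthinned), and cells with 3 or more held 53.9%, 61.6%, 47.6% and 48.0% of all Klrk1 UMIs. In TCRγδ Tcf7KO those cells numbered 5. Counting intervals do not cover that unevenness between cells.

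Klre1, which needs a KLRI partner to reach the surface, was at 211, 197, 273 and 200 CPM in the same order of libraries. It was detected in 21.6%, 20.7%, 29.8% and 22.7% of thinned cells (27%, 28.7%, 39.2% and 43.0% unthinned), and in 1 of the 33 epithelial-like cells. TCRγδ Tcf7WT was the highest, and neighbours in the order of the other 3 libraries could not be told apart. TCRβ Tcf7KO did lie below TCRβ Tcf7WT beyond counting error (log2 ratio -0.10, -0.16 to -0.03). The partner genes of Klre1 were far lower, with Klri1 at 17.6, 15.3, 7.10 and 10.0 CPM and Klri2 at 12.4, 10.6, 11.8 and 12.1 CPM. Klrg1 was rare, with 11 UMIs in TCRβ Tcf7WT (0.542 CPM), 46 in TCRγδ Tcf7WT (7.42 CPM) and 15 in TCRγδ Tcf7KO (2.09 CPM).

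Of the NKR-P1 genes, Klrb1a was at 193, 193, 165 and 259 CPM. Klrb1c, which encodes the activating receptor recognised by the classical NK1.1 antibody, was at 52.7, 84.9, 78.9 and 169 CPM. Klrb1f was at 6.85, 6.59, 11.6 and 10.4 CPM. TCRγδ Tcf7KO was the highest library for Klrb1a and Klrb1c, and both TCRγδ libraries lay above both TCRβ libraries for Klrb1f. For Klrb1c the interval between TCRβ Tcf7KO and TCRγδ Tcf7WT held equality. In thinned cells, Klrb1a was detected in 22.9%, 22.9%, 19.4% and 33.6% (32.4%, 36.1%, 30.8% and 58.9% unthinned) and Klrb1c in 6.81%, 10.8%, 10.6% and 21.8% (10.6%, 18.3%, 16.7% and 45.1% unthinned), and neither in any of 33 epithelial-like cells. Thinned, 0 of 25 such cells had a UMI of either gene, which allows a share of up to 12% (exact upper limit 13.7%), so the background is bounded only loosely.

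**Figure D1:**
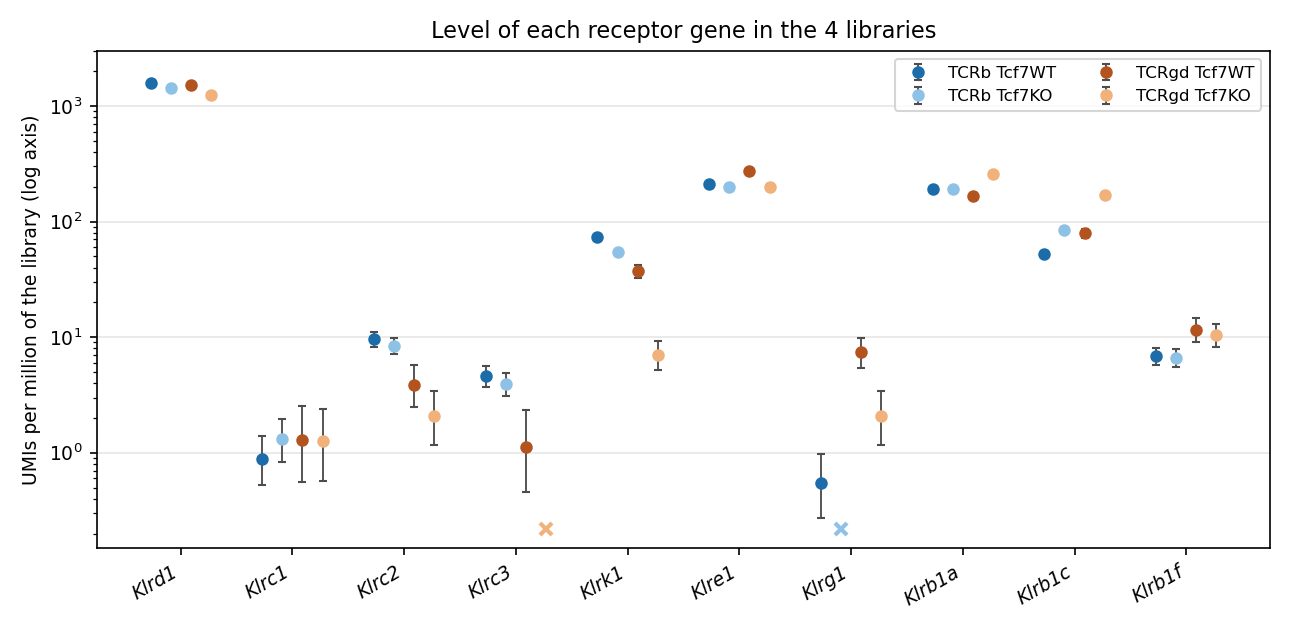
Level of each receptor gene in the 4 libraries (TCRb is TCRβ, TCRgd is TCRγδ), in CPM on a log axis; points are libraries, bars are exact 95% Poisson intervals and crosses mark genes missing from a library's list. Klrd1 stands above 1200 CPM in every library, Klrk1 descends from 73.0 to 6.96 CPM, and Klrb1a and Klrb1c are highest in TCRγδ Tcf7KO.

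Tcf7KO was first compared with Tcf7WT within the TCRβ sort, where most members differed by less than 1.5-fold. A gene is called apart here when both libraries list it, its UMIs sum to at least 20, and its CPM differed at least 1.5-fold. Of the 9 members measured, only Klrb1c was apart, with 84.9 against 52.7 CPM, a log2 ratio of 0.69 (0.57 to 0.80). That is 1 of 9 higher, against 3.29% of all 13027 genes, and 0 of 9 lower, against 6.13%. Klrk1 had a log2 ratio of -0.42 (-0.54 to -0.31), a 1.34-fold difference short of the threshold. Klrb1a was level, with a log2 ratio of -0.00047 (-0.066 to 0.065). Klrd1 and Klre1 stood at -0.12 and -0.10. The scarce members had intervals that held equality, with Klrc1 at 0.56 (-0.38 to 1.53), Klrc2 at -0.18 (-0.49 to 0.13), Klrc3 at -0.23 (-0.69 to 0.23) and Klrb1f at -0.06 (-0.42 to 0.31). The median over the 9 members was -0.10, against -0.07 over all genes.

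In the TCRγδ sort the members diverged. Klrb1c was at 169 CPM in Tcf7KO and 78.9 CPM in Tcf7WT, a log2 ratio of 1.10 (0.95 to 1.26). Klrb1a was at 259 against 165 CPM, a log2 ratio of 0.65 (0.54 to 0.76). Klrk1 was at 6.96 against 37.0 CPM, which is 5.31-fold lower, a log2 ratio of -2.41 (-2.88 to -1.96). Detection differed as well as level: the share of thinned cells with a Klrk1 UMI was 1.08% (0.618% to 1.75%) against 4.03% (3.12% to 5.12%). Klrg1 was 3.56-fold lower, from 15 against 46 UMIs, a log2 ratio of -1.83 (-2.78 to -0.96). Klrc2 was 1.86-fold lower from 15 against 24 UMIs, and its interval (-1.93 to 0.10) held equality. Klrd1 and Klre1 were lower by less than the threshold, at log2 ratios of -0.29 (-0.34 to -0.25) and -0.45 (-0.55 to -0.35). Klrb1f was at -0.15 (-0.64 to 0.33). Of the 8 members measured, 2 were apart upward, against 10% of 11905 genes, and 3 downward, against 6.83%, with a median of -0.37 against -0.03. Epithelial markers summed to 2050 CPM in Tcf7KO and 732 CPM in Tcf7WT, and none of the 5 members apart lost that call without the epithelial-like cells.

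Klrk1 was lower and Klrb1c higher in Tcf7KO in both sorts. In bulk sums alone, fewer cells with a transcript and less transcript in each cannot be told apart, so shares of cells are given beside the levels. Unthinned TCRγδ cells with a Klrk1 UMI held 2.03 Klrk1 UMIs on average in Tcf7WT and 2.17 in Tcf7KO. For Klrb1c these means were 1.55 and 1.79. In TCRβ they were 2.06 and 2.35 for Klrk1, and 1.32 and 1.47 for Klrb1c. Depth differed between the libraries, and the means are not corrected for it. Whether the 2 sorts differ in the size of the effect was not tested.

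The sorts were next compared within a genotype. In Tcf7WT, Klrg1 was 13.7-fold higher in TCRγδ, with a log2 ratio of 3.78 (2.81 to 4.87) that rests on 46 and 11 UMIs, and Klrb1f was 1.70-fold higher (log2 ratio 0.76, 0.33 to 1.18). Klrk1 was 1.97-fold lower in TCRγδ (-0.98, -1.19 to -0.78), Klrc2 2.47-fold lower (-1.30, -1.98 to -0.69) and Klrc3 4.06-fold lower (-2.02, -3.37 to -0.92). That makes 2 of 10 members higher, against 11% of 12474 genes, and 3 of 10 lower, against 9.32%. Klrb1c, at a log2 ratio of 0.58 (0.42 to 0.74), lay just under the 1.5-fold line. Klre1 was at 0.37 (0.29 to 0.45), Klrb1a at -0.22 (-0.32 to -0.12), Klrd1 at -0.06 (-0.09 to -0.02) and Klrc1, from 8 and 18 UMIs, at 0.54 (-0.87 to 1.82).

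In Tcf7KO, Klrk1 was 7.82-fold lower in TCRγδ, with a log2 ratio of -2.97 (-3.41 to -2.56), and Klrc2 4.04-fold lower (-2.01, -2.89 to -1.25). Klrb1c was higher, at a log2 ratio of 1.0 (0.89 to 1.11), and so was Klrb1f, at 0.66 (0.23 to 1.09). Of 8 members, 2 were apart upward, against 13.8% of 12489 genes, and 2 downward, against 9.62%. Klrb1a was at 0.42 (0.34 to 0.51) and Klrd1 at -0.23 (-0.26 to -0.19), both short of the threshold. The intervals of Klre1, at 0.02 (-0.07 to 0.10), and of Klrc1, at -0.06 (-1.35 to 1.10), held equality. These comparisons share libraries with those between genotypes, so they are not independent of them.

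**Figure D2:**
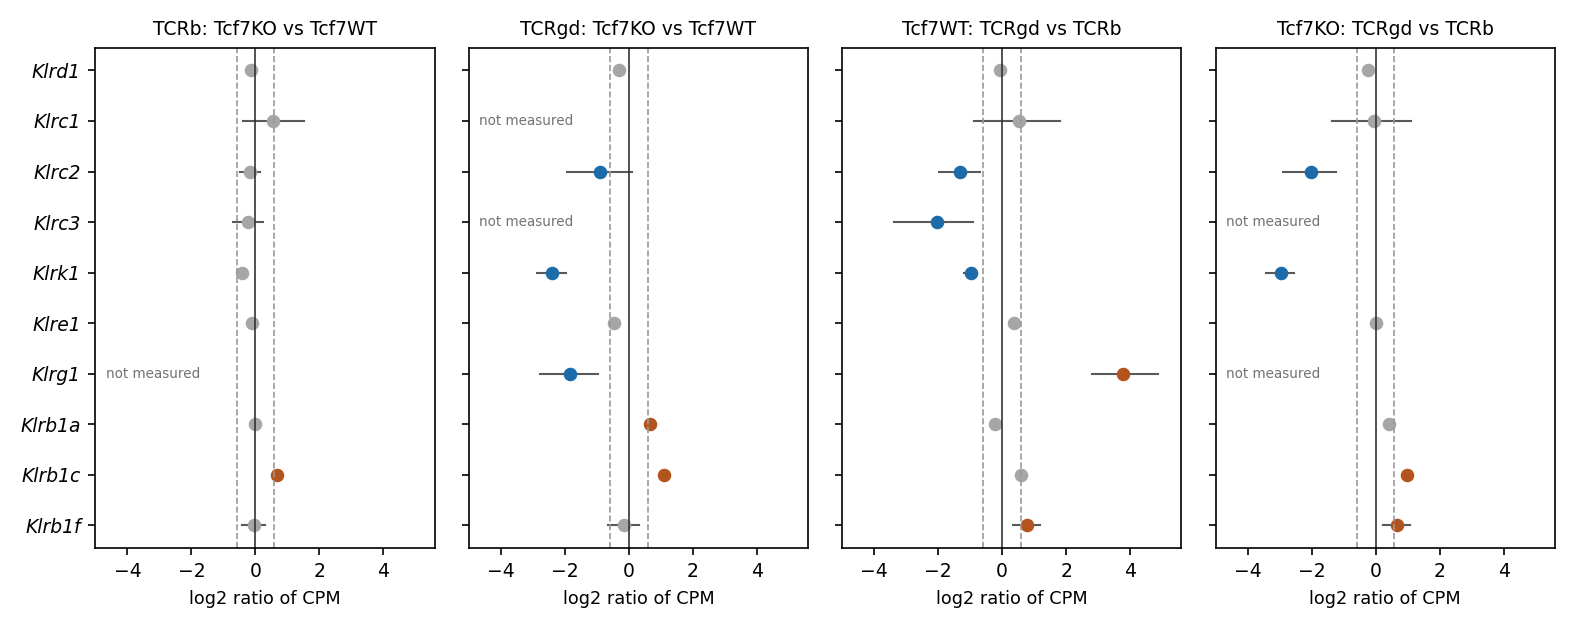
Log2 ratios of CPM for each member in 4 comparisons of libraries, with exact 95% intervals; orange points are at least 1.5-fold higher, blue points at least 1.5-fold lower, grey points neither, and dashed lines mark 1.5-fold. Between genotypes in the TCRβ panel only Klrb1c, at 0.69, is past 1.5-fold, with Klrc1 at 0.56 and Klrk1 at -0.42 inside it. The TCRγδ panel spreads from Klrk1 at -2.41 to Klrb1c at 1.10.

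Cells were then split within each library by granzyme A, the protease gene of cytotoxic granules. Gzma-positive cells, with at least 1 Gzma UMI, numbered 756 of 7603 in TCRβ Tcf7WT, 1883 of 5785 in TCRβ Tcf7KO, 1159 of 1888 in TCRγδ Tcf7WT and 1326 of 1511 in TCRγδ Tcf7KO, or 9.94%, 32.5%, 61.4% and 87.8%. Gzma UMIs were also found in 8 of the 33 epithelial-like cells, and 230, 647, 132 and 103 of the positive cells had only 1 or 2 Gzma UMIs. The part of free transcript in the split was not tested. Median depths of positive against negative cells were 2733 and 2397, 3174 and 2738, 3197 and 3149, and 4358 and 4454 UMIs in the 4 libraries. Gzma itself was left out of the totals.

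In TCRβ cells, Klre1 and Klrb1c went with Gzma. Klre1 was at 486 CPM in Gzma-positive and 177 CPM in Gzma-negative cells of Tcf7WT, a log2 ratio of 1.46 (1.36 to 1.56), and at 288 against 149 CPM in Tcf7KO, a log2 ratio of 0.95 (0.85 to 1.04). For shares of thinned cells the Gzma class was read again from the thinned counts, so these classes are not the same as those of the levels. In Tcf7WT, 51.0% of 630 such Gzma-positive cells had a Klre1 UMI against 18.6% of 6214 Gzma-negative ones. In Tcf7KO the shares were 32.2% of 1516 against 16.1% of 3780. Klre1 was therefore higher in granzyme A cells of both TCRβ libraries. Klrb1c was at 86.2 against 48.7 CPM in Tcf7WT (log2 ratio 0.82, 0.59 to 1.05) and at 124 against 64.1 CPM in Tcf7KO (0.96, 0.81 to 1.10). Natural killer cell markers summed to 14.5 CPM in Gzma-positive and 7.55 CPM in Gzma-negative cells of Tcf7WT, from 4 of 5 listed with Ncr1 not among them, and to 8.3 and 8.6 CPM in Tcf7KO. Their part in these differences was not tested.

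Klrk1 went the other way in TCRβ cells. It was at 51.4 CPM in Gzma-positive and 75.8 CPM in Gzma-negative cells of Tcf7WT, a log2 ratio of -0.56 (-0.85 to -0.29) that fell just short of 1.5-fold, and at 36.9 against 64.3 CPM in Tcf7KO, a log2 ratio of -0.80 (-1.02 to -0.59). The Tcf7WT difference was past 1.5-fold in 4 of 9 alternatives and reached -1.01 with classes from thinned cells, and that in Tcf7KO reached -1.66 when positive cells needed at least 3 Gzma UMIs. Klrc3 in Tcf7WT had 3 UMIs in Gzma-positive and 90 in Gzma-negative cells, a log2 ratio of -1.90 (-4.2 to -0.31). Klrc2 at -0.68 (-1.58 to 0.11) and Klrb1f at 0.60 (-0.13 to 1.26) were past 1.5-fold there with intervals that held equality. In Tcf7KO, Klrc1 at -0.40, Klrc2 at -0.50, Klrc3 at -0.49 and Klrb1f at 0.43 were under 1.5-fold, all with intervals that held equality. Klrd1 and Klrb1a, the abundant members, were nearly level, between -0.09 and 0.09 in both libraries. In TCRβ Tcf7WT, 3 of 8 measured members were apart upward, against 9.01% of 12225 genes, and 2 downward, against 10.9%. In TCRβ Tcf7KO, 2 of 9 were apart upward, against 4.97% of 11924 genes, and 1 downward, against 6.1%.

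In TCRγδ cells the pattern differed gene by gene. In Tcf7WT, Klre1 was at 279 against 272 CPM, with no difference beyond counting error (log2 ratio 0.03, -0.11 to 0.18). Klrb1a was lower in Gzma-positive cells, at 139 against 211 CPM (-0.60, -0.78 to -0.42), and Klrb1f was lower too, at 6.41 against 20.2 CPM (-1.66, -2.43 to -0.92). All 46 Klrg1 UMIs of that library fell in Gzma-positive cells, where it was at least 9.71-fold higher if the negative cells are set to the floor of 3 UMIs; the exact interval of the log2 ratio begins at 2.92, which is lower. Klrc2, from 10 and 14 UMIs, was at -1.14 (-2.48 to 0.13). Klrk1 was at 38.4 against 35.8 CPM (0.10, -0.29 to 0.51) and Klrb1c at 83.6 against 74.2 CPM (0.17, -0.10 to 0.45), both with intervals that held equality. Klrd1 was at 0.35 (0.28 to 0.41). Thus 1 of 8 members was apart upward, against 6.41% of 10600 genes, and 3 downward, against 6.66%.

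In TCRγδ Tcf7KO only 185 cells were Gzma-negative. Klrb1c was at 184 against 106 CPM (0.80, 0.51 to 1.10), Klrk1 at 5.46 against 17.0 CPM (-1.64, -2.52 to -0.70) from 33 and 17 UMIs, and Klrb1f at 8.76 against 22.0 CPM (-1.33, -2.07 to -0.54). Epithelial markers summed to 6851 CPM in those negative cells and to 1273 CPM in the positive ones. Without the epithelial-like cells the log2 ratio of Klrd1 went from 0.47 to 0.33; with classes from thinned cells that of Klrb1c was 0.44. Klre1 was at 0.51 (0.27 to 0.77) and Klrb1a at 0.38 (0.17 to 0.59), short of 1.5-fold. Of 6 measured members, 1 was apart upward, against 9.09% of 11060 genes, and 2 downward, against 15.1%.

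**Figure D3:**
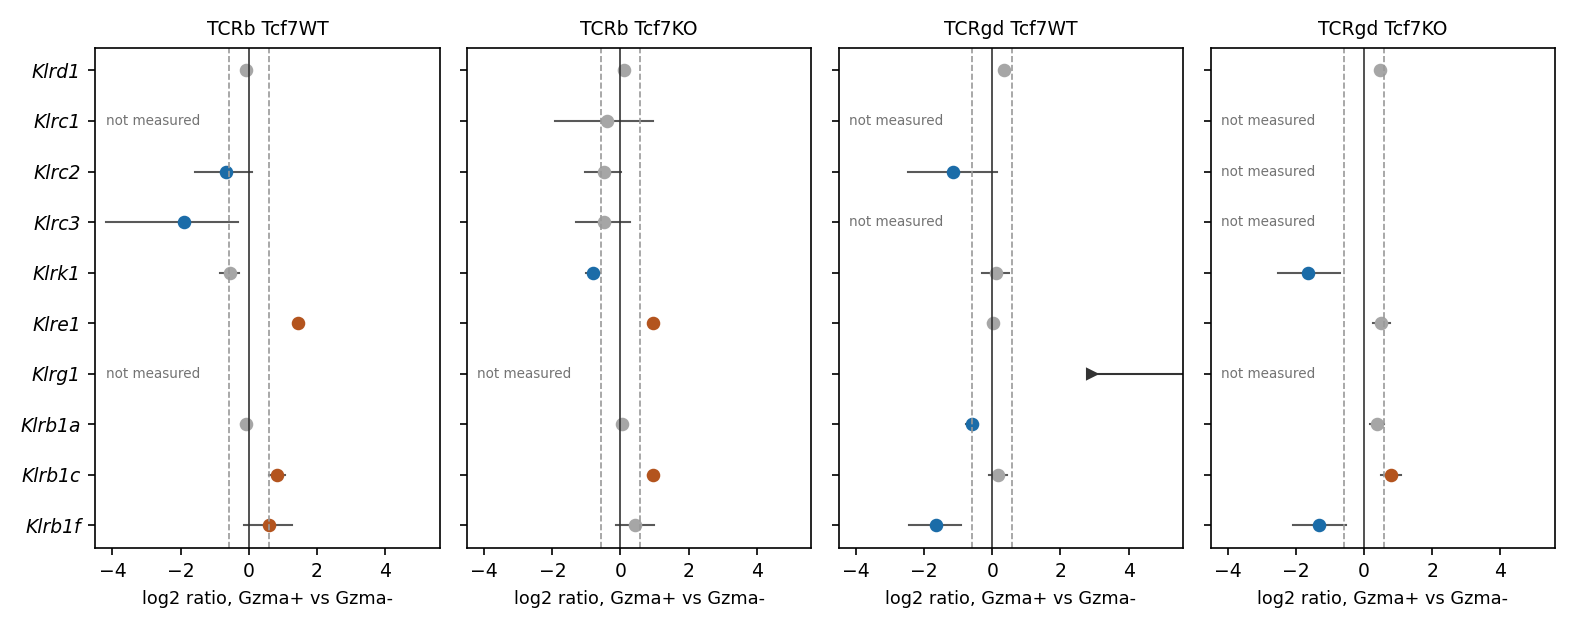
Log2 ratios of CPM in Gzma-positive against Gzma-negative cells of each library, with exact 95% intervals, coloured as in the comparison of libraries; the triangle marks the lower end of an interval with no upper end, where the negative cells had 0 UMIs. Klre1 is above 0.9 in both TCRβ panels and at 0.03 in TCRγδ Tcf7WT, and Klrb1f is at -1.66 and -1.33 in the TCRγδ panels.

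Because the Gzma-positive share differed so much between libraries, the genotypes were also set side by side within each class. The classes came from unthinned cells of unlike depth and Gzma level, so a class need not hold like cells in both genotypes. In TCRγδ Tcf7KO, 185 of 1511 cells were Gzma-negative unthinned and 246 of 1483 thinned. Klrk1 in TCRγδ was lower in Tcf7KO in both classes. Among Gzma-positive cells it was at 5.46 CPM in Tcf7KO against 38.4 in Tcf7WT (log2 ratio -2.82, -3.41 to -2.26). Among Gzma-negative cells it was at 17.0 against 35.8 (-1.08, -1.92 to -0.31), from 17 and 85 UMIs. Epithelial markers summed to 6851 CPM in the Gzma-negative cells of Tcf7KO and to 799 CPM in those of Tcf7WT. Klrd1 was lower in Gzma-negative cells too, at -0.47 (-0.58 to -0.37), and in Gzma-positive cells, at -0.35 (-0.40 to -0.30). The part of epithelial-like cells in these ratios was not tested. Klrb1a was at 273 against 139 CPM in Gzma-positive cells (0.97, 0.83 to 1.11) and at 210 against 211 CPM in Gzma-negative cells (-0.01, -0.25 to 0.23). Klrb1c was higher in Tcf7KO in both, at 1.14 (0.95 to 1.32) and 0.51 (0.15 to 0.87). Klre1 was lower in both, at -0.39 (-0.51 to -0.27) in Gzma-positive and -0.87 (-1.14 to -0.61) in Gzma-negative cells, the latter 1.83-fold. Klrg1 was 5.31-fold lower in Gzma-positive cells of Tcf7KO, from 14 against 46 UMIs (-2.41, -3.39 to -1.52). Klrc2 had 15 against 10 UMIs in Gzma-positive cells (-0.11, -1.36 to 1.21) and 0 against 14 in Gzma-negative cells, where the upper end of the interval was -0.49 and the gene was too sparse for a call.

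Klre1 in TCRβ cells differed more within the classes than over whole libraries. Among Gzma-positive cells it was at 288 CPM in Tcf7KO and 486 in Tcf7WT, a log2 ratio of -0.75 (-0.86 to -0.64), and among Gzma-negative cells at 149 against 177 CPM, -0.25 (-0.33 to -0.16), while over all cells the ratio was -0.10 (-0.16 to -0.03). Klrb1c in TCRβ cells was higher in Tcf7KO in both classes, at 0.53 (0.30 to 0.76) and 0.40 (0.25 to 0.54), each smaller than the 0.69 over all cells. Klrk1 was lower in both, at -0.48 (-0.81 to -0.14) and -0.24 (-0.37 to -0.11).

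**Figure D4:**
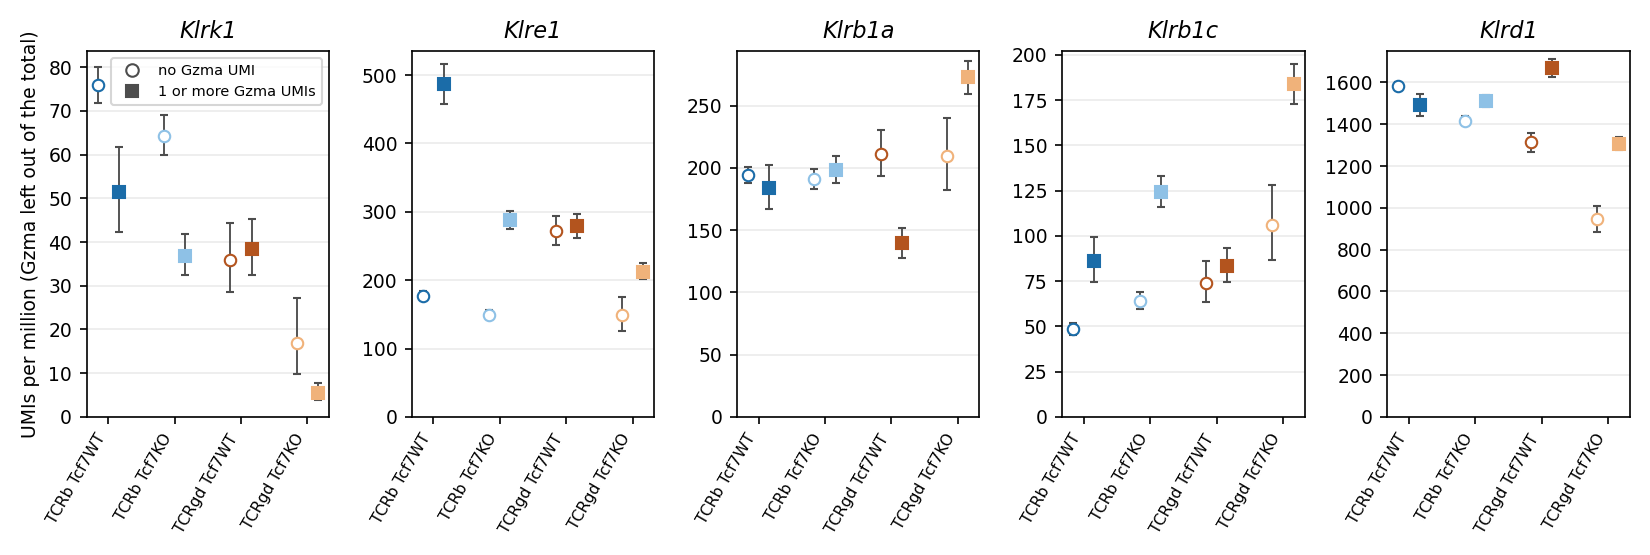
Levels of 5 members in cells without (open circles) and with (filled squares) Gzma UMIs of each library, in CPM with Gzma left out of the total; each panel has its own axis from 0 and bars are exact 95% Poisson intervals. Klre1 reaches 486 CPM in the Gzma-positive cells of TCRβ Tcf7WT and 288 in those of TCRβ Tcf7KO, and Klrk1 is at 5.46 CPM in the Gzma-positive cells of TCRγδ Tcf7KO.

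Other marker genes divided the members in the same cells, each thinned to 1624 UMIs. Cd8b1, the CD8β chain of conventional CD8 T cells, was detected in 562 of 6844 TCRβ Tcf7WT cells and 414 of 5296 TCRβ Tcf7KO cells. Klrd1 was lower in cells with Cd8b1, at 893 against 1682 CPM in Tcf7WT (-0.91, -1.02 to -0.81) and 922 against 1551 CPM in Tcf7KO (-0.75, -0.87 to -0.63). Klrb1a was lower as well, by log2 ratios of -1.27 (-1.63 to -0.94) and -1.56 (-2.03 to -1.12). Klrk1 was not: it was at 78.9 against 76.1 CPM in Tcf7WT (0.05, -0.32 to 0.40) and at 107 against 58.4 CPM in Tcf7KO (0.87, 0.50 to 1.24).

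In the TCRγδ sort, where the surface marker gene Thy1 was at 212 CPM in Tcf7WT and 36.9 CPM in Tcf7KO, Klrk1 went with Thy1. In Tcf7WT it was at 82.4 CPM in the 396 cells with Thy1 and 23.8 CPM in the 1192 without (1.79, 1.20 to 2.40). In Tcf7KO it was at 34.7 CPM in 71 cells and 6.98 CPM in 1412 (2.31, 0.27 to 3.95), from 4 and 16 UMIs. The genotypes were not compared within Thy1 classes. Klrb1a in Tcf7WT ran opposite, at 60.6 CPM with Thy1 against 186 CPM without (-1.62, -2.13 to -1.14).

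**Figure D5:**
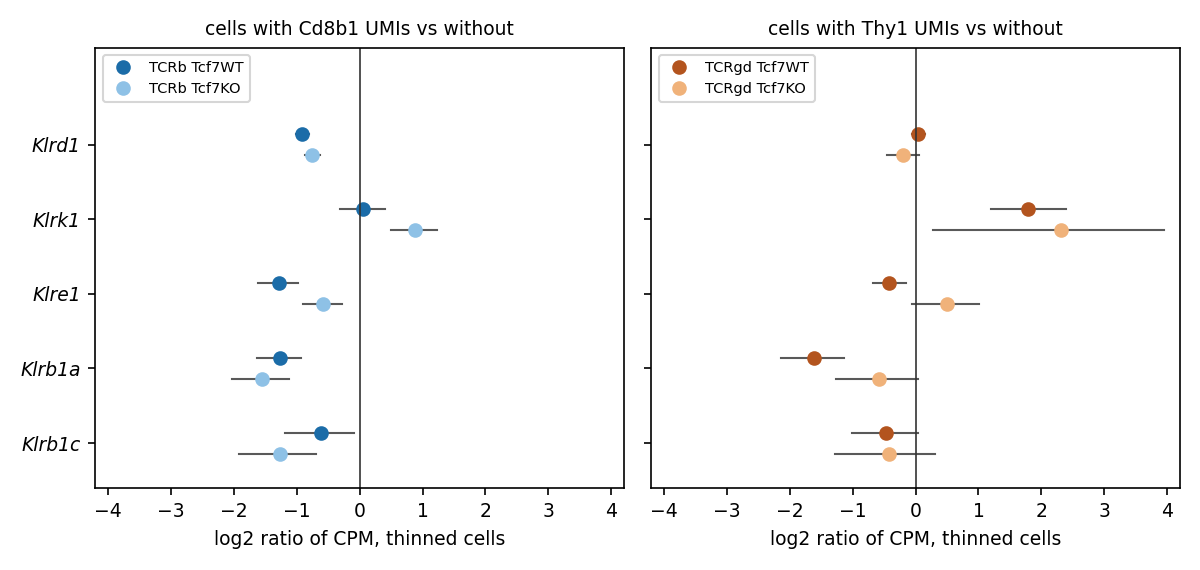
Log2 ratios of CPM for 5 members in thinned cells with against without UMIs of Cd8b1 (TCRβ libraries) and of Thy1 (TCRγδ libraries); points are libraries and bars exact 95% intervals. Klrk1 is above 0 in all 4 comparisons, with an interval that holds 0 for Cd8b1 in TCRβ Tcf7WT, and Klrd1, Klre1, Klrb1a and Klrb1c are below 0 in both TCRβ libraries.

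Members also met in the same cells more or less often than in the rest, as a description of these thinned cells. Klre1 was detected in 42.6% of the 488 Klrk1-positive cells of TCRβ Tcf7WT against 20% of the others, in 39.0% of 292 against 19.6% in TCRβ Tcf7KO, and in 46.9% of 64 against 29.1% in TCRγδ Tcf7WT. Klrb1a was less frequent in Klrk1-positive cells, at 15.0% against 23.5%, 15.8% against 23.3%, and 4.69% against 20% in the same libraries. TCRγδ Tcf7KO had only 16 Klrk1-positive cells. There Klre1 was at 37.5% (15.2% to 64.6%) against 22.6% and Klrb1a at 25% (7.27% to 52.4%) against 33.7%. Both intervals held the share of the other cells. Hcst, the adaptor gene of NKG2D, was found in 78.1% of Klrk1-positive TCRβ Tcf7WT cells against 70.2% of the others. Klrc2 and Klrc3 met in 10 of 97 Klrc2-positive TCRβ Tcf7WT cells, 10.3% against 0.608% elsewhere, and reads shared between the copies were not told apart. Klrk1 was found in 18.6% of those 97 cells against 6.97% elsewhere.

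Klrk1-positive TCRβ cells differed from the other cells in genes beyond the family, by a rule set after the data were seen. In Tcf7WT they held more Ly6c2, a memory-associated surface gene of CD8 T cells, at 173 against 51.7 CPM (1.74, 1.46 to 2.01), and in Tcf7KO 200 against 36.8 CPM (2.44, 2.10 to 2.78). Ifng, the interferon-γ gene, was at 174 against 57.5 CPM and 148 against 51.9 CPM. Il18r1 and Cd44 were higher in both libraries as well, and Ccr9, the gut-homing receptor gene, was lower, at 58.0 against 101 CPM and 35.8 against 120 CPM. Gzma was lower too, at 794 against 1623 CPM and 770 against 4185 CPM, so these differences were not separated from the Gzma split. The genes named are examples from a longer list, given without the share of all genes that passed the rule.

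The nearest patterns of other genes were read over 8 profiles, the 2 Gzma classes of each library, among 4697 genes. Klrk1 was closest to Tle3, Sh3kbp1 and Dnajb4, with nearly equal Pearson r of 0.985, 0.985 and 0.984. Klrb1c was closest to Vsir, Stat3 and Fgr, at 0.98 each, and Klrd1 to Mau2 at 0.99. Klre1 was closest to Birc2 at 0.96, Klrc2 to Celf2 at 0.99, Klrb1a to Nosip at 0.92 and Klrb1f to Klf4 at 0.93. The profiles share libraries and depth, and many genes exceeded an r of 0.9: 203 with Klrc2, 96 with Klrd1, 79 with Klrk1 and 45 with Klrb1c. For Klre1, Klrb1f and Klrb1a they numbered 16, 4 and 3. Klrc2 had 0 UMIs in the Gzma-negative cells of TCRγδ Tcf7KO. These are therefore descriptions of rank only.

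The adaptors that carry these receptors' signals were abundant. Tyrobp was at 803, 976, 1546 and 2259 CPM in TCRβ (Tcf7WT, then Tcf7KO) and TCRγδ (Tcf7WT, then Tcf7KO), Fcer1g at 1808, 2010, 2128 and 2875 CPM, and Hcst at 846, 710, 1017 and 641 CPM. Tyrobp and Fcer1g were highest in TCRγδ Tcf7KO, the library in which Hcst was lowest. In TCRγδ cells Hcst had a log2 ratio of -0.66 (-0.72 to -0.61) in Tcf7KO against Tcf7WT, beside the lower Klrk1. Of the 18 adaptor and signalling genes measured, 1 was apart upward there, Pik3r1, a phosphoinositide 3-kinase subunit gene (0.64, 0.56 to 0.71), and 2 downward, Hcst and Sh2d1a, the SAP adaptor gene (-1.0, -1.71 to -0.31), against 10% upward and 6.83% downward over all genes. In TCRβ cells 0 of 18 were apart in either direction, against 3.29% and 6.13%. These counts are near those over all genes. With Gzma, Tyrobp was higher in TCRβ Tcf7WT by 1.36 (1.31 to 1.41) and in TCRβ Tcf7KO by 1.23 (1.19 to 1.27), the largest of that list among genes with at least 50 UMIs.

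Among the other receptors of the complex, most were lower in TCRγδ. Of this list, which joins the Ly49 genes with further Klrb1, Klrh and Klri genes, 8 of 12 measured genes were apart downward against TCRβ in Tcf7WT, against 9.32% over all genes, and 9 of 13 in Tcf7KO, against 9.62%. All of them but Klri1 are Ly49 genes, led by Klra6 at -3.31 (-3.59 to -3.05) and -3.25 (-3.52 to -2.99), with list medians of -1.15 and -1.57. Klra5, another Ly49 gene, and Klrb1b, the inhibitory NKR-P1B receptor gene, were apart upward in both genotypes; this pair is named after its values were seen. Between genotypes in TCRβ, 1 of 14 measured genes of this list was apart upward, against 3.29% over all genes. There 1 was apart downward, the NKR-P1 gene Klrb1, against 6.13%. Between genotypes in TCRγδ, Klra5 was higher in Tcf7KO, at 741 against 402 CPM (0.88, 0.81 to 0.95). The Ly49 genes are themselves a family of close copies, so single members are uncertain.

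Transcripts of ligands were counted in these libraries too, with epithelial-like cells included. Which cells they came from, and the part of free transcript, was not tested. H2-T23, the Qa-1 gene, was at 58.6, 56.2, 105 and 83.9 CPM, Clec2d at 264, 207, 225 and 209 CPM, and H60b, a NKG2D ligand gene, at 24.4, 32.8, 23.4 and 23.2 CPM. In TCRγδ against TCRβ, H2-T23 was higher in Tcf7WT by 0.84 (0.70 to 0.98) and in Tcf7KO by 0.58 (0.43 to 0.73), while Clec2i was lower by -0.99 and -0.89. Of the ligand list, 0 of 8 measured genes were apart upward in TCRβ Tcf7KO against Tcf7WT, against 3.29% over all genes, and 2 downward, against 6.13%. These were Clec2g, with 7 against 21 UMIs, and Clec2h, with 13 against 26 UMIs, named after their values were seen. In TCRγδ, 1 of 7 was apart upward, against 10%, and 0 downward, against 6.83%. That gene was Clec2h, whose 78 UMIs in Tcf7KO came from 17 cells. Cdh1, the E-cadherin gene of the epithelium, was at 10.2 to 16.1 CPM.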

How the data were processed

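The authors deposited unnormalized UMI counts as 1 matrix for each of the 4 libraries, made with the 10x 3′ v2 kit per the labels' protocols. Seurat 3.0.0 and the builds GRCm38 and mm10 are named, with no role, in the submitters' processing notes; aligner and filters are not given in the sources used here. Each library lists its own genes by symbol, and an unlisted gene gets no value. The members and gene lists were chosen with earlier results of these data known.

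UMIs were summed per library or cell class and divided by the total (CPM). Log2 ratios have exact conditional intervals, CPM exact Poisson intervals and shares exact Clopper-Pearson intervals, all of 95%. No test was made, since each group is a single library. Total counts were 20289960, 18372180, 6195292 and 7184668 UMIs in TCRβ (Tcf7WT, then Tcf7KO) and TCRγδ (Tcf7WT, then Tcf7KO). Cells were thinned to 1624 UMIs, a depth that 10% of TCRβ Tcf7WT cells do not reach, which left 6844, 5296, 1588 and 1483 cells and left out 759, 489, 300 and 28. A count of 0 was set to a floor of 3 UMIs for a lower bound. Epithelial-like cells had at least 20 UMIs and 2% of their UMIs on epithelial markers. No cell was removed in the values reported.

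The rule named every measured member in the comparisons of libraries and of Gzma classes and, from each other list, up to 4 genes with at least 50 UMIs and the largest absolute ratio. Members named within a Gzma class between genotypes, genes of Klrk1-positive cells, and adaptor, ligand and partner genes given by level alone, were chosen after the data were seen. Scrublet (scanpy 1.11.5) marked 1, 1, 3 and 6 cells, so it did not work as a doublet check in the large TCRβ libraries, and doublets were kept. Alternatives used edgeR 4.0.16 TMM factors, DESeq2 1.42.0 size factors and other cell and count filters. The interval script was checked on simulated counts. Tools were Python 3.11.15, numpy 2.4.6, scipy 1.17.1, pandas 2.3.3 and R 4.3.3. A planned split of the TCRβ cells is not reported here.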

Additional observations from a re-analysis of the deposited data

How the results depend on the processing

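No member apart between libraries or between Gzma classes changed sign under the alternatives run; these did not include Klrg1 by Gzma class or the genotypes within a Gzma class. Members apart in TCRβ Tcf7KO against Tcf7WT numbered 1, and 2 with TMM scaling, with DESeq2 scaling and with each cell weighing the same, where Klrc1 joined Klrb1c. In TCRβ Tcf7KO by Gzma class the count went from 3 to 6 when positive cells needed at least 3 Gzma UMIs. In TCRγδ Tcf7WT by Gzma class it went from 4 to 2 with at least 50 UMIs over both classes, since fewer members could be measured. The other counts of members apart stayed within 1.5 times. Klrb1c in TCRγδ against TCRβ, Tcf7WT, was apart in 5 of 9 alternatives. In TCRγδ Tcf7KO by Gzma class it was apart in 6 of 9, with log2 ratios of 0.44 to 0.87. Klrb1a in TCRβ Tcf7KO against Tcf7WT ranged from -0.07 to 0.07. Shares of cells moved with the thinning depth: Klrd1 in TCRβ Tcf7WT was detected in 71.0% of cells thinned to 1000 UMIs. Low counts limit Klrc1, Klrc2, Klrc3 and Klrg1. No paired analysis was possible because each group has 1 library.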
